A study of Mus musculus with 8 samples.

Results

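The genes described here are the receptors, co-receptors and Gli transcription factors of the Hedgehog pathway in stromal cells of the mouse small intestine. They are Ptch1, Smo, Gli1, Gli2, Gli3, Hhip, Gas1, Cdon and Boc. They were chosen by symbol, and all 9 were found once each among the 53801 genes of the deposited table. RNA was measured in CD45- CD31- cells, that is, cells outside the blood and endothelial lineages. They were sorted from LTβRYFP mice, which carry a YFP marker named after the lymphotoxin beta receptor, into a YFP+ and a YFP- gate with 4 libraries in each. The labels used here do not say how the YFP is driven, how old the animals were or whether animals were pooled. The description and the genotype of each sample give the gate used here, while the title of each gives the opposite sign, and all directions below depend on that choice.

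Hedgehog ligands leave the gut epithelium and act on the mesenchyme beneath it. Ptch1 binds the ligand and, when unbound, holds the signal transducer Smo inactive, while Cdon, Boc and Gas1 help to present ligand to Ptch1 and Hhip captures it. Signalling through Smo at the primary cilium turns the Gli2 and Gli3 proteins from repressor forms towards activators, and the transcription of Gli1, Ptch1 and Hhip rises in responding cells, which is why those 3 genes are commonly read as a sign of pathway activity.

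Start-site windows of the members are shown for Ptch1, the member with the largest rise in YFP+, and Gli2, the member with the highest level per exon length. Each window runs from 250 bases before to 50 bases after a start of transcription in RefSeq (GRCm38.p6), is written 5′ to 3′ on the gene's own strand, and has each CpG in capitals.
Ptch1, chr13:63565686-63565985, minus strand: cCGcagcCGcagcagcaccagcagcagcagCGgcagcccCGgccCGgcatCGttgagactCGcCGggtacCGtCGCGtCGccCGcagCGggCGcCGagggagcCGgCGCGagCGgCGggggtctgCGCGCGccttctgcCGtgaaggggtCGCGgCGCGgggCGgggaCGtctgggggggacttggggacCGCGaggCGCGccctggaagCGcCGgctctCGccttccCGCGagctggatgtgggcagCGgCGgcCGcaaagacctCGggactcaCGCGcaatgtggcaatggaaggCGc
Gli2, chr1:119053570-119053869, minus strand: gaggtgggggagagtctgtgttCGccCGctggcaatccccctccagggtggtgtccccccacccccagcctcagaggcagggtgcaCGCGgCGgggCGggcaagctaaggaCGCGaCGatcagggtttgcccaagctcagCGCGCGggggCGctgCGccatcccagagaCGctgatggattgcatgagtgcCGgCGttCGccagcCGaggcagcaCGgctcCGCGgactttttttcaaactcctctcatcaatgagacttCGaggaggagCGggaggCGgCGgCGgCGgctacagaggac
The Ptch1 window held 47 CpG and the Gli2 window 28, where the median over 32851 windows of this length was 7. The Ptch1 window lies around a start 7863 bases inside the gene as GENCODE draws it, so it is 1 of several possible starts, whereas the Gli2 window lies at the GENCODE start itself. The Gli consensus motif GACCACCCA, searched on both strands with no mismatch allowed, was in none of the 7 member windows that the RefSeq table held and in 0.253% of all windows. Gli1 and Boc were not among the 7. The Cdon window lies around a start 30948 bases inside the GENCODE gene and is not printed. The members Gas1, Ptch1 and Gli3 lie on chromosome 13, with Gas1 from 60174405 to 60177365 and Ptch1 from 63508328 to 63573598 on the minus strand and Gli3 from 15463235 to 15730026 on the plus strand.

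Library totals ran from 23272858 to 29829232 counts. Stromal markers were abundant. Col3a1 fell from 18831.3 ± 1426.3 CPM in YFP- to 16047.9 ± 984.1 CPM in YFP+ (log2 ratio -0.23, edgeR adjusted p = 8.68e-04). Pdgfra, named outside the rule and the only general fibroblast marker that did not fall, had 1054.6 ± 51.3 and 1035.7 ± 128.4 CPM in YFP- and YFP+ (mean ± SD, n = 4). CPM are counts scaled to a common library size. The summed level of 9 enteric glial markers lay between 124.4 and 198.9 CPM in YFP- and between 9.01 and 11.5 CPM in YFP+, and 8 of the 9 fell. Of 7 epithelial markers 4 fell by edgeR and 6 by DESeq2 and by limma-voom, with a summed level of 22.1 to 59.7 CPM in YFP- and 6.58 to 9.01 CPM in YFP+. All 6 markers of CD81+ crypt-base and adventitial fibroblasts and 5 of 6 general fibroblast markers fell, while 5 of 6 smooth muscle markers rose. Without the pairing 5 of the first, 2 of the second and 0 of the smooth muscle markers were called by edgeR, with 2 smooth muscle markers higher at an unadjusted p under 0.05, while the 8 glial calls did not change in number. The 6 tested subepithelial fibroblast markers split into 2 that rose and 1 that fell, and the 5 mural markers into 1 and 1. One of 3 markers of interstitial cells of Cajal rose. Without the pairing the subepithelial calls were 1 and 0 and the Cajal call was lost. Of the other cells, 3 of 6 endothelial, 1 of 3 tested neuronal, 0 of 4 tested haematopoietic and 0 of 1 tested mesothelial markers fell, and none of these rose by edgeR. Without the pairing 1 endothelial and 0 neuronal markers were called, with 3 and 1 lower at an unadjusted p under 0.05. DESeq2 and limma-voom gave the same counts for these 4 lists, and 0 haematopoietic or mesothelial markers had an unadjusted p under 0.05.

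All 9 members were expressed, and their levels covered about the same order in both gates. Per kilobase of exon, Gli2 was the highest, with 53.8 ± 3.93 CPM per kilobase in YFP- against 47.6 ± 7.59 in YFP+ (mean ± SD, n = 4). Its libraries stood apart from those of Ptch1, the next gene, in YFP- but overlapped them in YFP+. Boc, Gli3, Gli1 and Smo formed the middle, between 14.8 and 24.5 CPM per kilobase in YFP- and between 16.5 and 20.4 CPM per kilobase in YFP+. Boc was first among these 4 in YFP- and behind Gli1 and Gli3 in YFP+, where its libraries overlapped those of Gli3 above it and Smo below it. In YFP- the Boc libraries overlapped those of Ptch1, but not those of Gli3. Gas1 had 12.7 ± 1.19 and 9.57 ± 2.71 CPM per kilobase, and Hhip 4.72 ± 0.733 and 5.51 ± 0.785, in YFP- and YFP+. Cdon was the lowest in both gates, at 1.47 ± 0.577 CPM per kilobase in YFP- and 0.473 ± 0.0632 in YFP+. No library of Gas1, Hhip or Cdon overlapped those of the gene next to it in that order.

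**Figure D1:**
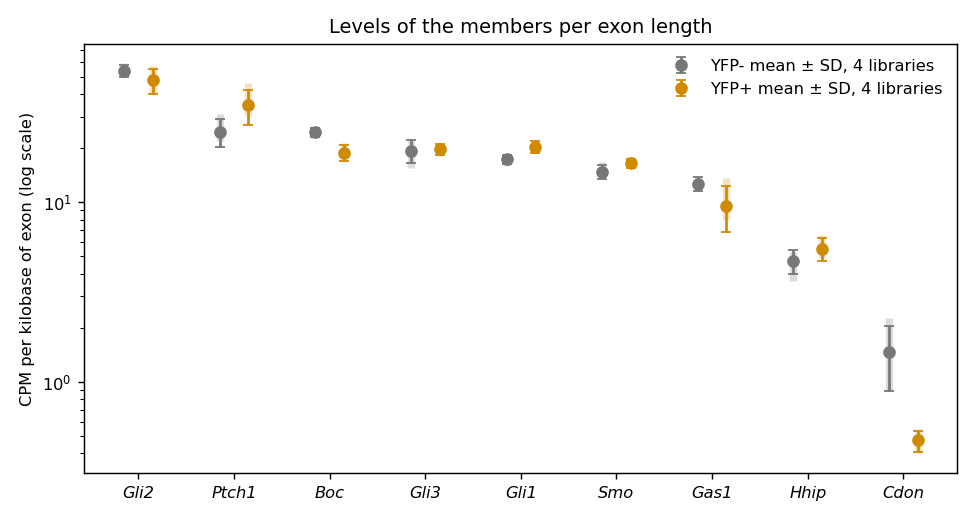
Level of each member per kilobase of annotated exon (log axis) in YFP- and YFP+ libraries. Points are means with SD over 4 libraries and the pale bars give the lowest and highest library. Gli2 is at the top of the order and Cdon at the bottom in both gates, and the gap between gates is widest for Cdon.

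Of the 9 members, all of which passed the filter on low counts, Ptch1 and Gli1 were higher in YFP+ and Cdon, Boc, Gas1 and Gli2 lower. Libraries with the same replicate number were taken as pairs, and a gene was called when its edgeR adjusted p was under 0.05. By the same rule 11.5% of 16354 tested genes were called (3.65% higher and 7.85% lower), or 15.0% of the 10731 with a mean of at least 5 CPM, a level that every member reached. The median log2 fold change was 0.04 over the members and 0.01 over all tested genes, and the median absolute change was 0.24 against 0.18. Without the pairing, 2 of 9 were called, Cdon and Boc, and 697 genes in all against 1880. In such bulk samples fewer cells of a type and less RNA per cell cannot be told apart.

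**Figure D2:**
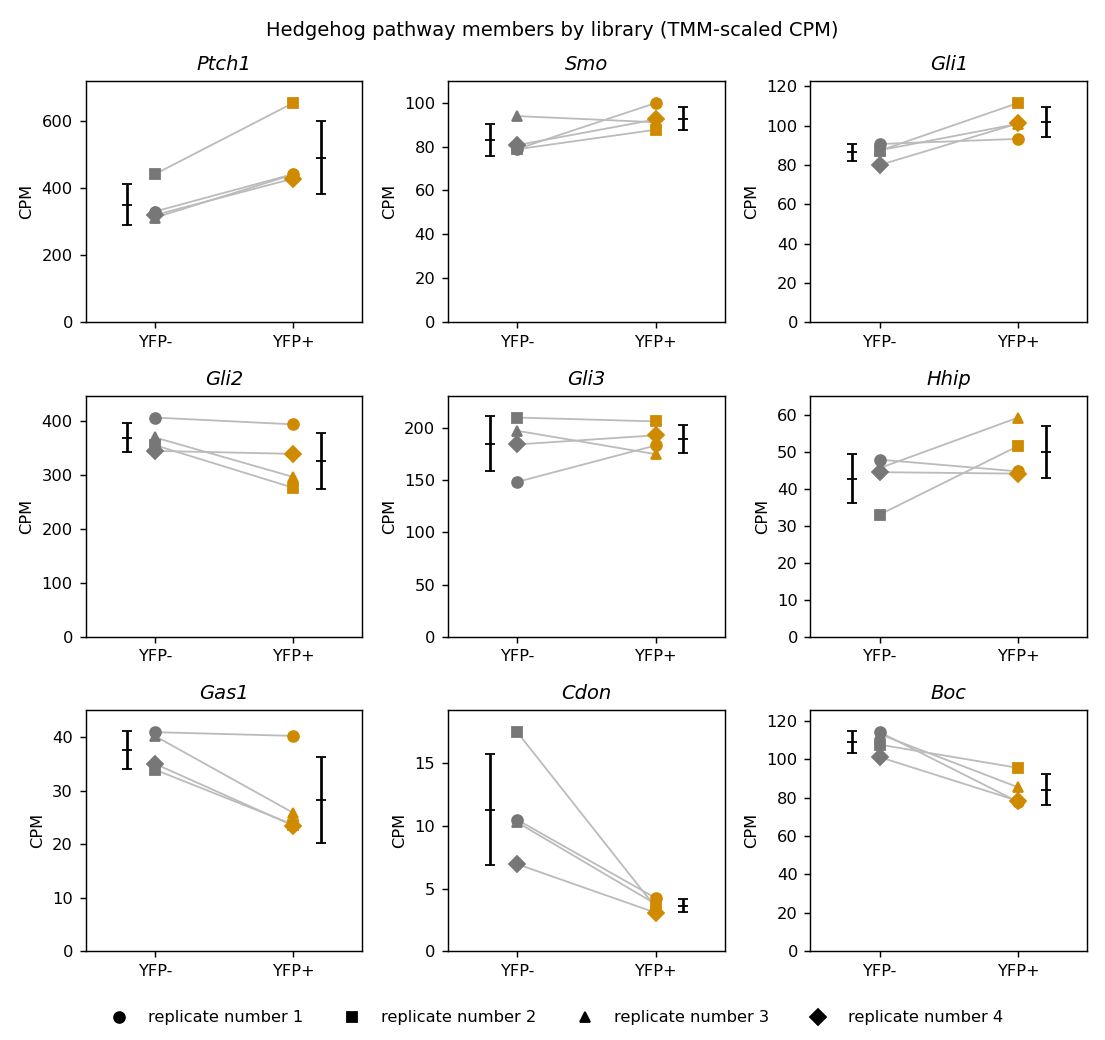
CPM of each member in the 8 libraries, with libraries of the same replicate number joined and the mean with SD of each gate beside the points. Every line falls for Cdon, Boc, Gas1 and Gli2 and every line rises for Ptch1 and Gli1. Almost level are the lines of Gas1 and Gli1 for replicate number 1 and of Gli2 for replicate numbers 1 and 4.

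Ptch1, the receptor and itself a target of the pathway, was the member that rose most. It had 329.4, 440.5, 310.9 and 318.8 CPM in YFP- replicates 1 to 4 and 441.0, 652.9, 439.8 and 427.6 CPM in YFP+ replicates 1 to 4. Replicate 2 was the highest of each gate, and the YFP- library of replicate 2 lay among the YFP+ values, so that the gates overlapped even though YFP+ was higher in all 4 pairs. The differences within pairs were close to each other, at 0.42, 0.57, 0.50 and 0.42 on the log2 scale. The estimated log2 ratio was 0.48 ± 0.05 (SE), a 1.39-fold rise (edgeR adjusted p = 1.42e-07). Without the pairing the estimate was 0.49 and edgeR gave an adjusted p of 0.127, and among the 8 fits that also left out 1 library Ptch1 was called only without YFP- replicate 2 (0.63, edgeR adjusted p = 0.022). Without YFP+ replicate 2 and without the pairing it was 0.32 (edgeR adjusted p = 0.159). The summed subepithelial markers were also highest in replicate 2 of each gate, at 420.3 CPM (YFP-) and 498.5 CPM (YFP+). So were the summed smooth muscle markers, at 439.4 and 820.5 CPM, and the summed neuronal markers, at 18.5 and 7.36 CPM. Their part in the Ptch1 result was not tested.

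Hhip, the decoy that binds ligand at the cell surface, varied between pairs. It stood at 48.0, 33.1, 45.7 and 44.6 CPM in YFP- replicates 1 to 4 and at 44.8, 51.7, 59.4 and 44.2 CPM in YFP+ replicates 1 to 4. Replicates 2 and 3 were higher in YFP+, while replicates 1 and 4 differed by -0.10 and -0.01 on the log2 scale, and the gates overlapped. Its log2 ratio of 0.23 (95% interval 0.01 to 0.45) did not pass (edgeR adjusted p = 0.206), and a rise of the size of that of Gli1 lies within the interval.

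Smo, the transducer that Ptch1 restrains, had 78.9, 78.8, 93.9 and 80.7 CPM in YFP- replicates 1 to 4 and 99.9, 87.7, 91.1 and 92.4 CPM in YFP+ replicates 1 to 4. YFP- replicate 3 was above the other libraries of its gate and inside the YFP+ range. Its log2 ratio of 0.16 (95% interval 0.02 to 0.30) did not pass (edgeR adjusted p = 0.142), and Smo was higher in YFP+ in 3 of 4 pairs. The ratio of Ptch1 to Smo per kilobase was 1.69 ± 0.381 in YFP- against 2.11 ± 0.563 in YFP+ (mean ± SD, n = 4), with overlapping libraries.

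The 3 co-receptors were all lower in YFP+. Cdon, an immunoglobulin-superfamily protein that binds Hedgehog ligand, changed the most of the members. Its counts were 237, 419, 239 and 192 in YFP- replicates 1 to 4 and 114, 85, 115 and 89 in YFP+ replicates 1 to 4, or 10.5, 17.5, 10.3 and 6.96 CPM against 4.25, 3.50, 3.77 and 3.08 CPM. All YFP+ libraries lay below all YFP- libraries, and YFP- replicate 2 was the highest. The mean fell from 11.3 ± 4.45 CPM in YFP- to 3.65 ± 0.487 CPM in YFP+ (SD, n = 4), giving a log2 ratio of -1.56 ± 0.21 (SE, edgeR adjusted p = 4.66e-06). By the size of that change Cdon stood near the top of the table, since 2.30% of tested genes had a larger one in either direction. It was called in all 20 alternative fits, with log2 ratios from -1.80 to -1.30, and without replicate 2 it was -1.30 (edgeR adjusted p = 1.99e-04).

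Boc, the close relative of Cdon, had 114.0, 107.5, 112.9 and 101.0 CPM in YFP- replicates 1 to 4 and 77.7, 95.4, 85.3 and 78.2 CPM in YFP+ replicates 1 to 4. The gates did not overlap, which held for 3 of the 9 members (Cdon and Boc lower, Gli1 higher) and for 9.64% of tested genes, 5.86% with all YFP+ libraries lower and 3.78% with all higher. The estimated log2 ratio was -0.38 ± 0.07 (SE, edgeR adjusted p = 2.34e-04). Boc was called in each of the 11 alternatives that kept the pairing and in 4 of the 9 that did not. The pair differences ran from -0.55 to -0.17 on the log2 scale. Boc was much the more abundant of the pair: the level of Cdon per kilobase was 0.0599 ± 0.0237 of that of Boc in YFP- against 0.0252 ± 0.00457 in YFP+ (mean ± SD, n = 4), and these ratios did not overlap between gates.

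Gas1, a membrane-anchored co-receptor unrelated in sequence to Cdon and Boc, had 41.0, 34.0, 40.3 and 35.1 CPM in YFP- replicates 1 to 4 and 40.3, 23.7, 25.9 and 23.5 CPM in YFP+ replicates 1 to 4. YFP+ replicate 1 lay within the YFP- range while the other 3 YFP+ libraries were below it. The pair differences were -0.03, -0.52, -0.64 and -0.58 on the log2 scale and the estimate was -0.44 ± 0.10 (SE, edgeR adjusted p = 0.00476). Without replicate 3 the call was lost (-0.37, edgeR adjusted p = 0.0729), as it was without the pairing (-0.41, edgeR adjusted p = 0.214). Without the pairing and without YFP+ replicate 1 it passed (-0.62, edgeR adjusted p = 0.00637). Of the exon length of Gas1, 19.9% is shared with Gm48488 on the opposite strand, whose level did not exceed 0.796 CPM in any library.

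The co-receptors fell beside the markers of enteric glia, whose median log2 ratio over 9 tested genes was -3.58. YFP- replicate 2 had both the highest Cdon level and the highest summed glial level (198.9 CPM) of its gate. That library was also the highest of YFP- for the summed neuronal, Cajal, subepithelial, smooth muscle and mesothelial markers. For the other marker lists it was not. YFP- replicates 1, 3 and 4 had 139.8, 124.4 and 130.7 CPM of glial markers and 10.5, 10.3 and 6.96 CPM of Cdon. Among YFP+ libraries, replicate 1 had the lowest glial sum (9.01 CPM) and the highest Cdon level (4.25 CPM). Boc had its highest YFP- level in replicate 1. The fall of Cdon was smaller than that of each of the 8 glial markers that fell, which ran from S100b (-1.86) to Foxd3 (-6.41). S100b and Foxd3 are named outside the rule. The part of glial RNA, and of the CD81+ and adventitial fibroblast markers that fell as well (median -0.70), in these results was not tested.

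**Figure D3:**
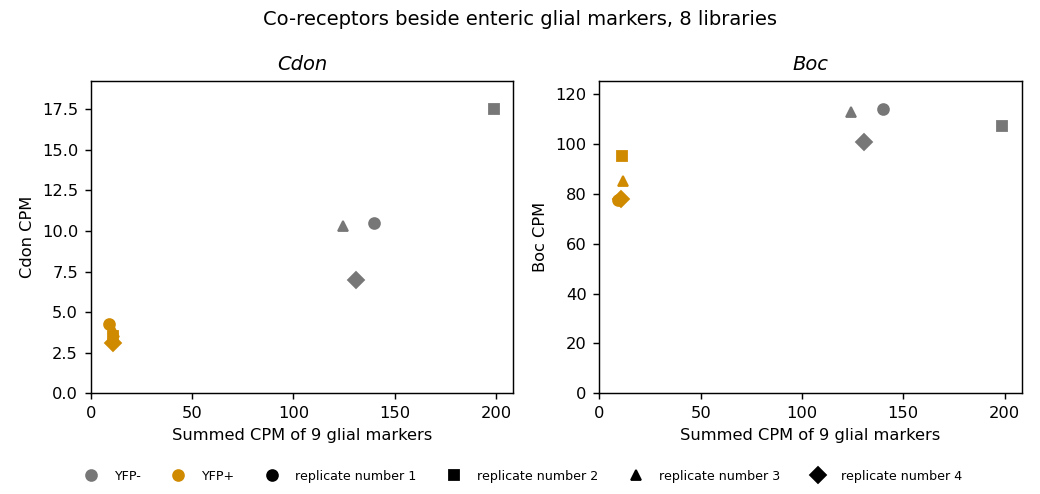
Cdon (left) and Boc (right) in CPM against the summed CPM of 9 enteric glial markers, 1 point per library, with shapes for the replicate number. YFP+ libraries lie between 9.01 and 11.5 CPM of glial markers, YFP- libraries between 124.4 and 198.9, and YFP- replicate 2 is the highest for Cdon but not for Boc.

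The 3 Gli factors moved in different directions. Gli1, which acts as an activator and whose transcription follows pathway activity, had 90.7, 87.3, 87.5 and 80.0 CPM in YFP- replicates 1 to 4 and 93.3, 111.6, 101.0 and 101.2 CPM in YFP+ replicates 1 to 4. The gates did not overlap, though YFP+ replicate 1 was within a few CPM of the highest YFP- library. The estimated log2 ratio was 0.24 ± 0.07 (SE, edgeR adjusted p = 0.0183), a 1.18-fold rise that was 0.04 on the log2 scale in pair 1 and 0.21 to 0.35 in the others. The call was lost without replicate 2 (edgeR adjusted p = 0.0777), replicate 3 (0.0853) or replicate 4 (0.117), and without the pairing (0.134). On the opposite strand 5.31% of the Gli1 exon length is shared with Gm47200, which ran from 6.29 to 10.8 CPM, and 1.24% with Arhgap9, which did not exceed 0.693 CPM.

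Gli2, the main activator of the transcriptional response, had 406.8, 355.8, 370.0 and 344.9 CPM in YFP- replicates 1 to 4 and 394.2, 276.4, 296.5 and 339.4 CPM in YFP+ replicates 1 to 4. The gates overlapped, since YFP+ replicate 1 was above 3 of the YFP- libraries. The differences within pairs were -0.05, -0.36, -0.32 and -0.02 on the log2 scale, so the size of the fall rested on pairs 2 and 3. The estimate of -0.19 ± 0.06 (SE) was near the threshold (edgeR adjusted p = 0.0382). It did not pass without replicate 2 (-0.12, edgeR adjusted p = 0.266), without replicate 3 (-0.14, edgeR adjusted p = 0.308), without the pairing (-0.18, edgeR adjusted p = 0.466), by DESeq2 (-0.18, adjusted p = 0.063) or in the authors' deposited table (-0.18, adjusted p = 0.0694).

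Gli3, which mostly supplies the repressor form, had 148.4, 210.1, 197.4 and 184.3 CPM in YFP- replicates 1 to 4 and 183.4, 206.4, 175.0 and 193.1 CPM in YFP+ replicates 1 to 4. The YFP+ libraries lay inside the YFP- range, and 2 pairs rose and 2 fell. Its log2 ratio was 0.04, with a 95% interval of -0.09 to 0.18 (edgeR adjusted p = 0.762). Per kilobase, Gli1 stood at 0.322 ± 0.0128 of Gli2 in YFP- against 0.440 ± 0.0969 in YFP+ (mean ± SD, n = 4), the lowest YFP+ library (0.325) lying inside the YFP- range of 0.307 to 0.337. Gli3 stood at 0.362 ± 0.0700 and 0.425 ± 0.0834 of Gli2, with overlapping libraries.

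**Figure D4:**
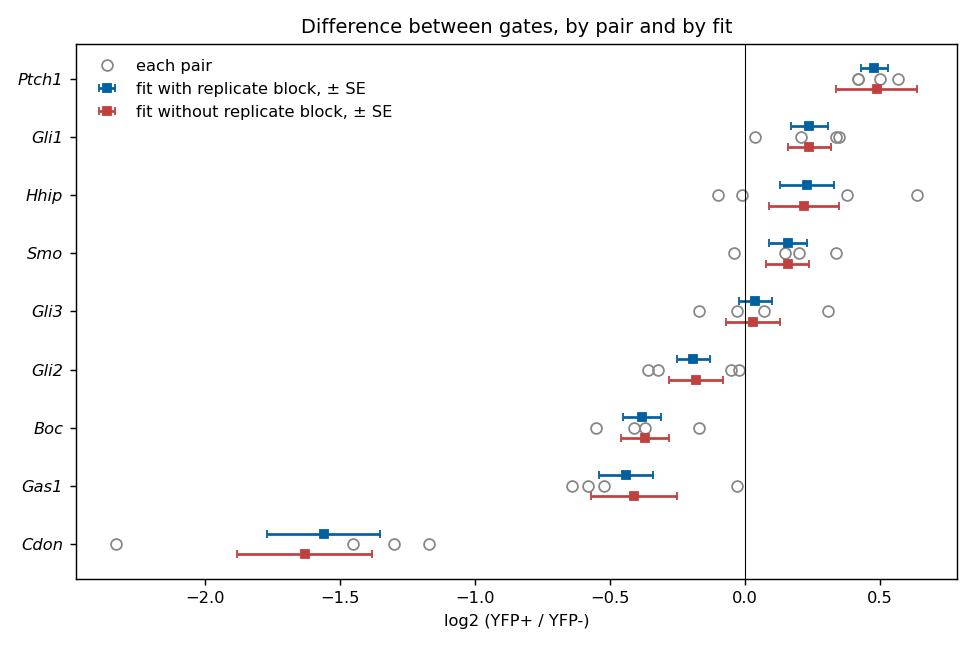
Log2 ratio of YFP+ over YFP- for each member. Open circles are the 4 same-numbered pairs, and squares are edgeR estimates with SE, fitted with (upper) and without (lower) the replicate number as a block. The estimates are close to each other, and the SE of Ptch1 narrows most in proportion when pairs are used.

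The genes whose pattern over the 8 libraries was nearest to that of Cdon were Adam11, Adam23 and Mmp15, among 10159 genes of at least 5 CPM left after pseudogenes, antisense genes and genes with only a placeholder name were set aside. Likeness was the root mean square difference between mean-centred log2 CPM profiles, which was 0.17, 0.18 and 0.25. Genes chosen in this way share the direction of Cdon or Gli1 largely through the choice, so their changes are no separate result. All 3 fell, Adam11 from 32.0 ± 8.0 to 10.6 ± 1.91 CPM, Adam23 from 45.2 ± 15.5 to 16.5 ± 1.46 CPM and Mmp15 from 10.6 ± 4.01 to 3.68 ± 1.06 CPM (YFP- to YFP+, mean ± SD, n = 4). Adam11 and Adam23 belong to the ADAM family and Mmp15 is a membrane-type matrix metalloproteinase. For Gli1 the nearest were Fbxl5, Metap2 and Acad8, at 0.04, 0.05 and 0.05, of which Fbxl5 was called (log2 ratio 0.29, edgeR adjusted p = 0.0118). The profile of Gli1 spans little, so small differences from it are easily reached.

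Ligand RNA was close to absent from both gates. Shh had 1 count in all, in YFP- replicate 2. Ihh had 7, 1, 8 and 8 counts in YFP- replicates 1 to 4 and 3, 2, 0 and 2 in YFP+ replicates 1 to 4. Dhh, the ligand of Schwann cells and gonads, had 8 to 33 counts in YFP- and 6 to 20 in YFP+ (log2 ratio -0.68, edgeR adjusted p = 0.641). Of the 9 genes of ligands and their release, 6 were tested, Scube1 rose and none fell. Scube1, a secreted relative of the Scube2 protein that helps to release lipid-bound ligand, went from 381.2 ± 41.8 CPM in YFP- to 513.8 ± 52.2 CPM in YFP+ (mean ± SD, n = 4), a log2 ratio of 0.43 (edgeR adjusted p = 3.96e-07).

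Of the 51 listed pathway genes other than the members, 44 were tested. By edgeR 7 of them rose and 2 fell, with a median log2 fold change of 0.02. DESeq2 and limma-voom each gave 7 higher and 3 lower. Over all tested genes edgeR called 3.65% higher and 7.85% lower, and among those with a mean of at least 5 CPM it called 15.0% in either direction. Among other Hedgehog-binding proteins, Gpc3, a glypican that competes with Ptch1 for ligand, fell from 121.8 ± 16.7 CPM in YFP- to 90.5 ± 10.6 CPM in YFP+ (-0.43, edgeR adjusted p = 2.07e-05). Of 16 tested intracellular regulators of Gli, Gpr161 rose and none fell. Gpr161, a ciliary receptor that restrains the pathway through cAMP, went from 70.4 ± 11.4 CPM in YFP- to 103.9 ± 10.3 CPM in YFP+ (mean ± SD, n = 4), a log2 ratio of 0.57 (edgeR adjusted p = 8.01e-07). The most abundant of that list, Csnk1a1, had a log2 ratio of -0.02 (edgeR adjusted p = 0.832), and Sufu, which holds Gli proteins in the cytoplasm and is named outside the rule, -0.04 (edgeR adjusted p = 0.748). By edgeR none of 12 genes of ciliary transport passed, nor did any by DESeq2 or limma-voom. At an unadjusted p under 0.05 edgeR gave 2 higher and 1 lower, and their log2 ratios ran from -0.19 to 0.31.

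Of 8 tested genes described as Hedgehog targets in gut mesenchyme, 4 rose and 1 fell by edgeR. DESeq2 and limma-voom each gave 4 higher and 2 lower. Osr1, named outside the rule, did not pass (log2 ratio -0.46, edgeR adjusted p = 0.0574) and was lower in 3 of the 4 pairs. Myocd, a coactivator of smooth muscle genes, went from 14.8 ± 2.7 CPM in YFP- to 29.4 ± 6.12 CPM in YFP+ (mean ± SD, n = 4), a log2 ratio of 0.98 (edgeR adjusted p = 2.98e-07). Nkx2-3, a homeobox factor of gut mesenchyme, rose by 0.54 (edgeR adjusted p = 8.88e-08), and Bmp4, a BMP ligand, by 0.40 (edgeR adjusted p = 5.88e-06). Foxf2, a forkhead factor named outside the rule, was the fourth (0.45, edgeR adjusted p = 2.80e-05). Ccnd2, a cyclin, fell (-0.23, edgeR adjusted p = 0.0197), and lost that call without replicate 1 (edgeR adjusted p = 0.108), replicate 3 (0.0507), replicate 4 (0.198) or the pairing (0.196). Most of these genes have other inputs, and the 5 smooth muscle markers called with the pairing rose beside Myocd, a relation that was not tested. Foxf1 and Foxl1, the best known forkhead targets, are listed at 0 in every library and were not tested. Fendrr and Mthfsd, which lie near them on chromosome 8, had 3860 to 6576 and 440 to 730 counts. The zeros of Foxf1 and Foxl1 are not read here as absence of expression, and whether the counting set them was not tested.

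**Figure D5:**
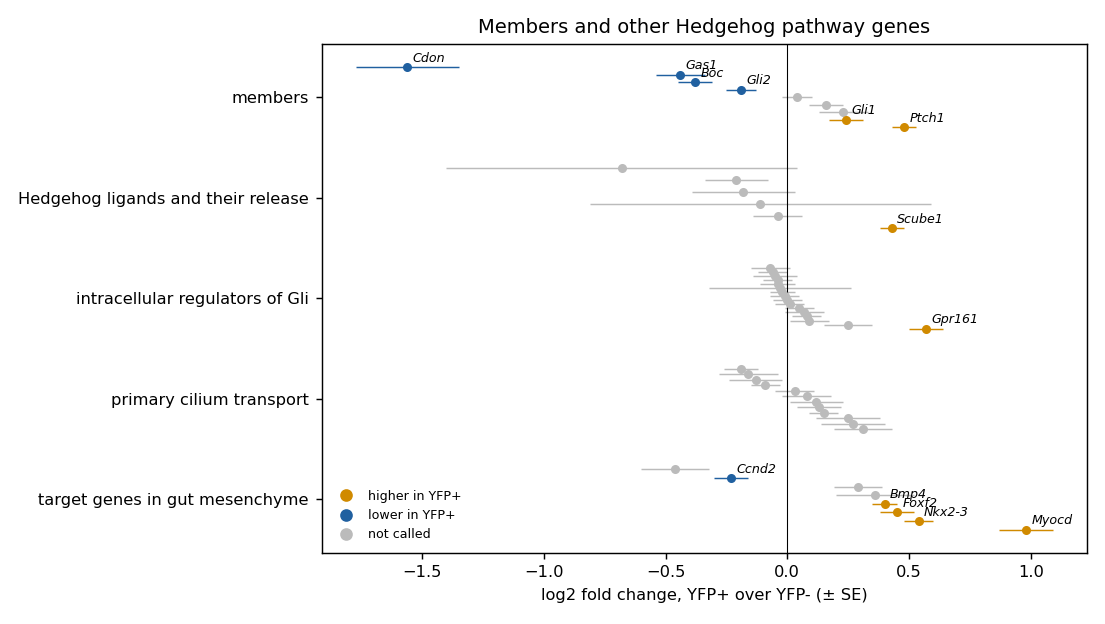
Log2 fold change of YFP+ over YFP- with SE (edgeR with the replicate number as a block) for the tested members and for the tested genes of 4 pathway lists: ligands and their release, intracellular regulators of Gli, ciliary transport and target genes. Called genes are coloured and named: 2 members are higher and 4 lower, and 6 genes of the 4 lists are higher and 1 lower.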

How the data were processed

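RNA came from 8 libraries prepared with a stranded total RNA kit for small inputs, per the labels' protocols. The tools that the submitters' processing notes name are cutadapt 3.4, STAR 2.7.3a, featureCounts 2.0.1 and DESeq2, with GRCm38 (mm10) as the build. Whether the counting used strand is not given in the sources used here. Deposited by the authors are raw counts for each gene, used here as they stand, and log2 fold changes with adjusted p-values, of which those of Gli2 are quoted. The 8 columns normalised by the authors were left aside.

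Counts were analysed with edgeR 4.0.16 in R 4.3.3: filterByExpr, TMM scaling and the quasi-likelihood F test with robust estimation, Benjamini-Hochberg adjustment over 16354 tested genes and a threshold of 0.05. CPM are counts over TMM-scaled totals, and the SE was taken from the F statistic. SDs cover the spread between the libraries of a gate. Intervals come from the fit with the replicate number as a block, which sets aside differences between replicate numbers. The labels do not tie the libraries to separate animals.

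The replicate number was a block, because the authors' deposited log2 fold changes were matched to within 5.00e-04 by DESeq2 1.42.0 with the number and the group. Over 5200 genes the deviations of same-numbered libraries correlated at 0.60, 0.64, 0.38 and 0.57, and those of other numbers at -0.42 to 0.05. No label says what a number shares.

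Alternatives were other scalings and filters, DESeq2, limma-voom (limma 3.58.1), no block, totals without mitochondrial or ribosomal RNA genes, and leaving out libraries. The members, the gene lists and the rule for named genes were chosen with earlier results of these data known. Beside the members the rule takes, from each pathway list, the 3 called genes of smallest p in each direction, where there are so many, and the most abundant gene, the 3 ligands, the 2 most abundant genes of each marker list, and the 3 genes nearest in pattern to Cdon and to Gli1. Not all of the genes it took are printed: some results are not reported here, though the list counts include them. Exon lengths and coordinates are from GENCODE M21. Mosmo, 1 of the 51 pathway genes, was not found by symbol. Protein sequences were not used here.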

Additional observations from a re-analysis of the deposited data

Results flagged for a closer look

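In 40 sets of 4 values (the members and other named pathway genes in each gate, and the library totals), 7 held a library far from the other 3 of its gate, where chance gives about 1 in 20, or 2. Ptch1 was high in replicate 2 of both gates, with 440.5 CPM (YFP-) and 652.9 CPM (YFP+). Smo was high in YFP- replicate 3 (93.9 CPM) and Gas1 in YFP+ replicate 1 (40.3 CPM). Csnk1a1 was low in YFP- replicate 2 (300.8 CPM), and Dync2h1, a motor of ciliary transport, in YFP- replicate 1 (89.9 CPM). The total of YFP- replicate 4 was high (28688906 counts).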

How the results depend on the processing

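Without the replicate block edgeR called 2 members (0 higher, where 2 had an unadjusted p under 0.05 and a positive ratio, and 2 lower), 697 genes in all (150 higher, 547 lower) and, of the pathway list, 7 genes, 1 of them lower. Over the 12 fits that left out a pair, or 1 library without the block, the members called numbered 1 to 6 (higher 0 to 2, lower 1 to 4), all genes called 427 to 1581 (higher 88 to 500, lower 339 to 1126) and the pathway genes called 3 to 9 (higher 3 to 8, lower 0 to 3). Among the fits that kept the block, leaving out replicate 3 moved the counts most, to 3 members and 1182 genes. All 12 used fewer libraries. The cause of the change with the block was not tested. RLE and upper-quartile scaling, both other filters, limma-voom and removal of mitochondrial and ribosomal RNA genes each gave 6 members, and DESeq2 gave 5, without Gli2. The median ratio of all genes stayed between -0.01 and 0.02 under every alternative run. Of 180 alternative values of the members, 131 kept direction and side of the threshold, 46 lost a call and 3, all of Gli3, changed sign: Gli3 ran from -0.05 to 0.11 over the fits that left out libraries. Csnk1a1, not called, ran from -0.06 to 0.02. With 4 libraries a gate, Smo (0.16 ± 0.07, SE) and Hhip (0.23 ± 0.10) were not called. Gli1 (0.24 ± 0.07) and Gli2 (-0.19 ± 0.06), with changes of like size, were called in the main fit. Cdon rests on 85 to 419 counts a library, the fewest of the members.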
